A study of Rattus norvegicus with 17 samples.

Results

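The hippocampus of adolescent Long-Evans rats born to pair-fed (PF) dams was compared with that of rats born to dams fed ad libitum (AD), using 10 of the 17 RNA-seq samples of the series, 5 from PF and 5 from AD. PF dams received a liquid diet without ethanol from gestational day 0 to day 20, in the amount that an ethanol-fed dam had eaten. AD dams had free access to chow, and the offspring of both groups were sampled at 36 to 38 days of age. All pups of a diet group came from 1 litter, so diet and litter cannot be told apart, and p-values measure only the spread between littermates. A PF sample (animal 11f6) and an AD sample (replicate 4) were left out of the tests, and their values are given for the leading genes and where they reached the range of the other group. The 5 ethanol-exposed (ET) samples are named only where they show which control group a value stands with.

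Pair feeding is used in prenatal alcohol studies to match the calories taken by an ethanol-fed dam. A pair-fed dam eats a rationed amount, often quickly, and then has no food until the next meal, so that the diet form, the ration and the feeding schedule differ from free feeding together. The hippocampus serves memory and is part of the circuit that restrains the hormonal stress response. In adolescence its oligodendrocytes, the cells that wrap axons in myelin, are still maturing from precursors.

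Each of the 10 libraries held between 11392019 and 17498392 counted fragments. Choroid plexus markers, which mark the tissue that lines the ventricles beside the hippocampus, summed to 1838 CPM (counts scaled to library size) in PF replicate 2 and to between 241 and 529 CPM in the other 9 libraries. In the left-out samples they summed to 10829 CPM (PF animal 11f6) and 11702 CPM (AD replicate 4). Pineal gland markers summed to 1108 CPM in AD replicate 6 against 1.84 to 10.05 CPM in the other 4 AD libraries and 1.83 to 2.33 CPM in the 5 PF libraries. Both sexes were pooled in each group. By label, PF replicates 1, 2 and 3 and AD replicates 2 and 6 were female, and the other libraries tested were male. Y-linked counts went against the sex label in AD replicate 1 (labelled male, count 0) and AD replicate 2 (labelled female, count 3352). The named genes below the study threshold that lost their call without both of these libraries are given beside their results. Right hippocampi were PF replicates 1 and 6 and AD replicate 3.

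Few genes were lower in PF by a large fold. With both an adjusted p-value under 0.01 and a log2 fold change of more than 1.5 in size required (edgeR's quasi-likelihood test with Benjamini-Hochberg adjustment over 15960 genes), 4 genes were lower in PF, 0.0251% of those tested. At this threshold 323 genes were higher, 2.02% of those tested, and these are described last because most overlap another gene. All 4 lower genes were expressed at low levels, and 3 of them overlapped no other gene in the RefSeq gene list, while LOC102554288 could not be matched to it.

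Tcam1 encodes a cell adhesion molecule known from the testis. Its normalized count (scaled to a common library size) was 3.43, 1.91 and 1.73 in PF replicates 1 to 3, 0.649 in PF animal 11f5 and 3.97 in PF replicate 6. In AD replicates 1, 2, 3, 5 and 6 it was 35.1, 17.2, 35.5, 30.4 and 24.3. Every PF library lay far below every AD library, and the log2 fold change of Tcam1 was -3.41 (SE 0.33, adjusted p = 1.6e-05, edgeR). The left-out samples fell on the same sides, at 4.97 for PF and 48.4 for AD, and the ET mean of Tcam1 was 19.3.

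Tnnt1 encodes the slow skeletal muscle form of troponin T and is also known as a marker of thalamic neurons. Its normalized count was 8.41, 10.2, 4.16, 9.74 and 12.9 in PF (replicates 1, 2 and 3, animal 11f5 and replicate 6) and 25.6, 30.5, 24.8, 33.0 and 48.2 in AD (replicates 1, 2, 3, 5 and 6). The groups did not overlap, and the log2 fold change of Tnnt1 was -1.80 (SE 0.26, adjusted p = 0.00074, edgeR). Of 13 thalamus and habenula markers tested, Tnnt1 alone passed an adjusted p-value below 0.05 (over all genes, 0.846% were lower), and 11 had a fold change below 0. The summed level of the list was 350 to 378 CPM in PF and 359 to 434 CPM in AD, and the part of tissue from outside the hippocampus in the Tnnt1 difference was not tested. In the left-out samples Tnnt1 stood at 7.46 in PF and 37.9 in AD, while the summed list stood higher in PF (452 CPM) than in AD (364 CPM).

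The other 2 genes have no name beyond an identifier. LOC102554288 had normalized counts of 14.02 to 25.0 in PF and 68.6 to 131 in AD (log2 fold change -2.17, SE 0.21, adjusted p = 1.5e-05, edgeR). LOC100912642 had 0.325 to 3.64 in PF and 17.9 to 42.8 in AD (log2 fold change -3.83, SE 0.49, adjusted p = 0.00024, edgeR). For both, the groups were clearly apart, and AD replicate 3 was the highest library.

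**Figure D1:**
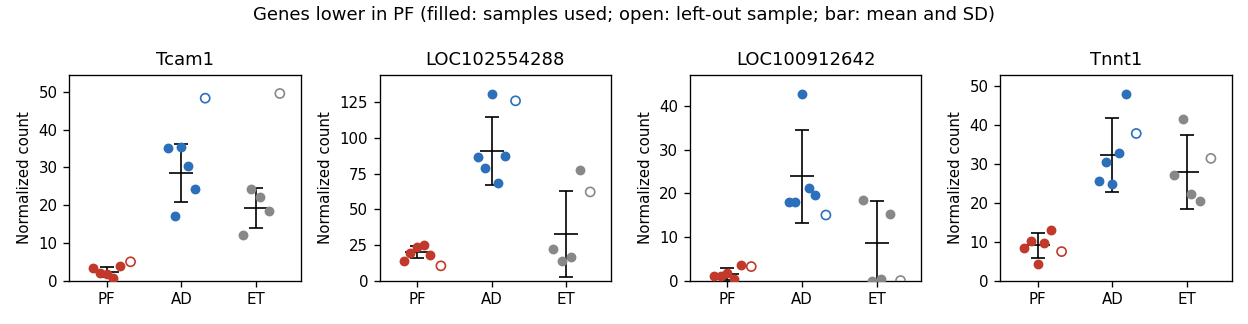
Normalized counts of the 4 genes lower in PF, with 1 point per library for PF, AD and ET (bars, mean and SD of the samples used; open circles, the left-out sample of each group). The 5 PF libraries of Tcam1 lay between 0.649 and 3.97, and the 5 AD libraries between 17.2 and 35.5.

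Smaller decreases were more frequent: 135 genes were lower in PF at an adjusted p-value below 0.05 at any fold, 0.846% of those tested, against 690 higher (4.32%). Tatdn3 and Zfp40 were picked from these after their values were seen. Tatdn3, a putative metal-dependent nuclease, was at 82.1 to 130 in PF and 182 to 202 in AD (log2 fold change -0.97, SE 0.11). Zfp40, a zinc finger protein, was at 222 to 297 in PF and 512 to 1002 in AD (log2 fold change -1.44, SE 0.19). The AD values of Zfp40 fell apart, with replicates 3 and 5 at 935 and 1002 and the other 3 at 512 to 577. Both genes overlap a neighbour, so their fragments could also lie on another gene.

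Igfbp4 encodes a secreted protein that binds insulin-like growth factors and holds them from their receptor. Its normalized count was 461, 559, 383, 498 and 508 in PF (replicates 1, 2 and 3, animal 11f5 and replicate 6) and 847, 800, 896, 730 and 811 in AD. All PF libraries lay below all AD libraries, and the log2 fold change was -0.76 (SE 0.09, adjusted p = 0.00011, edgeR). The left-out AD sample, at 473, stood within the PF range of Igfbp4. In the list of insulin and IGF signalling, 2 of 26 genes passed: Igfbp4 was lower and Igf1r, the receptor of insulin-like growth factor 1, was higher (488 to 621 in PF, 387 to 418 in AD; log2 fold change 0.39, SE 0.07), with its left-out AD sample at 488. Igf1r lost its call in 1 fit of the 3 diet groups (adjusted p = 0.22, edgeR). It also lost it with sex as a covariate (adjusted p = 0.078, edgeR), a fit that leaves out AD replicates 1 and 2. Over all genes tested, 0.846% were lower and 4.32% higher. The list's median log2 fold change was -0.02, against -0.003 over all genes tested, and both genes overlap another gene.

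Among well expressed genes, the shifts were small and went both ways. Of 5679 genes with a mean of at least 10 CPM that overlap no other gene, 53 were higher (0.933%) and 58 lower (1.02%) in PF at an adjusted p-value below 0.05 (edgeR). The median log2 fold change of the called genes was 0.34 for those higher and -0.28 for those lower, and none of the lower genes and 3 of the higher ones changed more than 2-fold. The ranges of the groups did not overlap for 43 of the 53 and 37 of the 58. These genes were called on the same values, which favours such separation, and the share over all 5679 genes was not counted. In the left-out pair, which took no part in the test, PF was below AD for 48 of the 58 lower genes and above AD for 48 of the 53 higher genes. Over all 5679 genes, PF was below AD in that pair for 63.1%. These counts depend on the libraries: without PF replicate 6 there were 100 higher and 157 lower, without PF replicate 2 there were 41 and 21, without PF replicate 1 39 and 22, and without AD replicate 2 32 and 22. Without AD replicate 1 there were 34 and 44, without PF replicate 3 43 and 38, and without PF animal 11f5 42 and 35. Without both AD libraries whose sex label was contradicted, 18 and 14 genes passed.

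**Figure D2:**
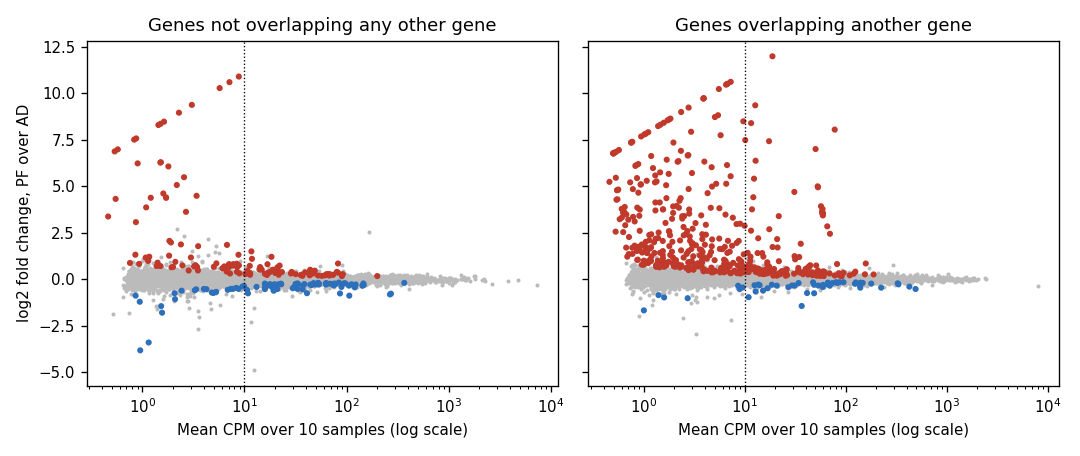
Log2 fold change of PF over AD against the mean CPM of the 10 samples (log axis) for genes that overlap no other gene (left) and genes that overlap another (right). Red points were higher and blue points lower in PF at an adjusted p-value below 0.05, and the dotted line marks 10 CPM. Right of the line the shifts on the left panel are small, and fold changes of genes absent from AD depend on the prior count of the fit.

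Among the 15 well expressed lower genes with the smallest p-values, Ube2s, a ubiquitin-conjugating enzyme of the anaphase-promoting complex, was at 197 to 291 in PF and 311 to 357 in AD (log2 fold change -0.53, SE 0.09). Sumo2, a small ubiquitin-like modifier, was at 173 to 264 in PF and 282 to 373 in AD (log2 fold change -0.62, SE 0.12). Padi2, the enzyme that converts arginine to citrulline in myelin basic protein and other targets, was at 728 to 980 in PF and 1173 to 2004 in AD (log2 fold change -0.76, SE 0.13). None of these groups overlapped, and the adjusted p-values were 0.0035 for Ube2s, 0.0087 for Sumo2 and 0.0038 for Padi2 (edgeR).

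Hunk, a kinase of the AMPK-related family, was at 312 to 479 in PF and 571 to 614 in AD, and the left-out AD sample stood at 430, within the PF range. Mknk2, a kinase that phosphorylates the translation factor eIF4E, had a log2 fold change of -0.29 (SE 0.05). Diras1, a small GTPase, had the same log2 fold change of -0.29 (SE 0.05), and Syde2, a GTPase activator, one of -0.32 (SE 0.06). Cyp26b1, which degrades retinoic acid, was at 324 to 454 in PF and 428 to 600 in AD, so that its groups overlapped, and the left-out AD sample stood at 329. Cacng5, an auxiliary subunit of AMPA receptors found in CA2 neurons, fell from a mean of 251 ± 29.6 in AD to 174 ± 22.3 in PF (SD, n = 5 each). In the left-out pair Cacng5 was higher in PF (210) than in AD (198). The remaining lower genes named by rank, Tmem125, Tmem41a, Jam3, Prxl2b, Cadm4 and Egln3, had log2 fold changes from -0.41 for Tmem125 to -0.22 for Jam3. In the left-out samples, Cadm4 (1880) and Egln3 (267) of AD stood within the PF range, and Jam3 of PF (802) stood above every AD library used. Without both sex-contradicted AD libraries, 9 of the 15 lost their call: Sumo2 (adjusted p = 0.052), Diras1 (0.064), Cyp26b1 (0.059), Jam3 (0.062), Hunk (0.082), Cacng5 (0.084), Tmem41a (0.11), Prxl2b (0.14) and Cadm4 (0.15) (edgeR). With 1 library left out, Cadm4 lost its call without PF replicate 1 or AD replicate 2, Prxl2b without PF replicate 2 or AD replicate 1, and Egln3 without PF animal 11f5 (adjusted p = 0.050 to 0.055, edgeR). In 1 fit of the 3 diet groups, Cadm4 (adjusted p = 0.066), Jam3 (0.098) and Egln3 (0.17) lost theirs (edgeR). Of the genes not yet named as losing a call, Ube2s (adjusted p = 0.057) and Mknk2 (0.11) lost theirs with sex as a covariate (edgeR). With the replicate block Mknk2 (adjusted p = 0.088) and Syde2 (0.081) did, and in left hippocampi alone Syde2 (0.060) did (edgeR).

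Among the well expressed higher genes, Glo1, which detoxifies methylglyoxal, rose from 791 ± 87.6 in AD to 1418 ± 126 in PF (SD, n = 5 each), a log2 fold change of 0.85 (SE 0.08). The left-out AD sample of Glo1 stood at 1494, within the PF range of 1291 to 1589. Rbm3, a cold-inducible RNA-binding protein, was at 631 to 713 in PF and 422 to 539 in AD (log2 fold change 0.46, SE 0.07). Scaf4, which binds RNA polymerase II, was at 575 to 609 in PF and 442 to 473 in AD (log2 fold change 0.36, SE 0.04). Each of these groups stood apart. Cabyr, a calcium-binding protein known from sperm, was at 177 to 273 in PF and 72.5 to 99.7 in AD. Commd10, Snapc3, Cox20, Nsun7, Faxdc2 and Cep68 had log2 fold changes from 0.21 for Cep68 to 0.64 for Cox20. In the left-out AD sample Nsun7 stood at 191, above every PF library used. Cep68 lost its call without both sex-contradicted AD libraries (adjusted p = 0.054, edgeR).

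Some of these higher genes had a gain in the neighbouring row as well. Mettl23 gained from 149 to 343 and its neighbour Srsf2 from 552 to 758 (means of AD and PF), although Srsf2 lost its call without both sex-contradicted AD libraries (adjusted p = 0.067, edgeR). Nagk gained from 222 to 369 and its neighbour Paip2b from 337 to 441. Pgap6 stood beside Mrpl28, and Ccdc142 beside Mrpl53, which were both at 0 in every AD library. In all, 9 of the 53 higher genes had a gene in the next row of the count table whose gain was between 0.8 times their own and the reciprocal of that, among them Mettl23, Srsf2, Pgap6, Snapc3 and Commd10, although the RefSeq gene list, of the later assembly GRCr8, gives them no overlap. The share of well expressed genes not called that have such a next-row gene was not counted. The gains of these 9 genes cannot be separated here from the gain at overlapping genes described below.

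In the oligodendrocyte lists, 5 genes were lower in PF at an adjusted p-value below 0.05. The precursor and early lineage list had 3 of 14 genes lower and none higher, with a median log2 fold change of -0.15, and the myelin list had 2 of 21 lower and none higher, with a median of -0.25. Of all genes tested, 0.846% were lower. Enpp6 and Mag overlap another gene. In bulk samples, fewer cells of a type and less RNA per cell cannot be told apart.

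Upstream sequence is shown for the 4 of these 5 genes with a RefSeq promoter entry, because these genes carry the calls of both lists. Each line holds the 250 bases before the gene's start in GRCr8, and capitals mark ACAAAG or its reverse complement CTTTGT, the core recognised by SOX factors, among them the oligodendrocyte factor SOX10. Olig1 has no entry.
Mag, chr1:95291045-95291294, minus strand: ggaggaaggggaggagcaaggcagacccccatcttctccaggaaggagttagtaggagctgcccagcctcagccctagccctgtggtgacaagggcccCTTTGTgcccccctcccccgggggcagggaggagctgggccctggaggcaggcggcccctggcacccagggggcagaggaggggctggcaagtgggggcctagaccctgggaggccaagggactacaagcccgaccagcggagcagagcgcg
Fa2h, chr19:56273481-56273730, minus strand: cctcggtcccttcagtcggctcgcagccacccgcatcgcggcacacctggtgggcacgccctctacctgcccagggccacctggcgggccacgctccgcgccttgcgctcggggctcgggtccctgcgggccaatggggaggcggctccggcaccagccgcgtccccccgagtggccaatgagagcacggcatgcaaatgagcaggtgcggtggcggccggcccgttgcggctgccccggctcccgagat
Enpp6, chr16:52026729-52026978, minus strand: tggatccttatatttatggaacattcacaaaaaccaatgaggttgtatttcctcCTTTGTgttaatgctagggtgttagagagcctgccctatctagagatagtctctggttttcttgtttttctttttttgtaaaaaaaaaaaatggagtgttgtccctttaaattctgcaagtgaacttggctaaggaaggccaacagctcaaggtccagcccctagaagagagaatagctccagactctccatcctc
Olig2, chr11:43961335-43961584, plus strand: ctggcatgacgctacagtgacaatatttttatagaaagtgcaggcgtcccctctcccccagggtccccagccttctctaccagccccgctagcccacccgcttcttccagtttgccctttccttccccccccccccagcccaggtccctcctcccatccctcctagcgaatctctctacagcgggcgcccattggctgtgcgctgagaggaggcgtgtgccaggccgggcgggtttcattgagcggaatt

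The letters occurred in 2 of these 4 sequences, once in Mag and once in Enpp6, and in 16.0% of the 27457 RefSeq windows of the same length. A match is a description of the letters only.

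Enpp6 marks newly formed oligodendrocytes and encodes a choline phosphodiesterase. Its normalized count was 394, 367, 416, 563 and 324 in PF (replicates 1, 2 and 3, animal 11f5 and replicate 6) and 564, 798, 816, 645 and 638 in AD (replicates 1, 2, 3, 5 and 6). PF animal 11f5 nearly reached AD replicate 1, the lowest of AD, and the others were well apart. The log2 fold change of Enpp6 was -0.74 (SE 0.15, adjusted p = 0.0090, edgeR).

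Olig1 and Olig2 encode the transcription factors that set the lineage. Olig1 was at 1662, 1460, 1596, 1622 and 2056 in PF and 2044, 2276, 2019, 2087 and 2334 in AD, and PF replicate 6 reached the AD range. Its log2 fold change was -0.35 (SE 0.08, adjusted p = 0.030, edgeR). Olig2 was at 384 to 515 in PF and 505 to 629 in AD, which overlapped (log2 fold change -0.34, SE 0.09, adjusted p = 0.045, edgeR). The left-out AD sample of Olig1, at 1949, stood within the PF range.

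Mag encodes a myelin glycoprotein that faces the axon. It was at 4310, 5117, 4669, 4984 and 5459 in PF and 5807, 7116, 6029, 5641 and 7809 in AD, with no overlap (log2 fold change -0.40, SE 0.10, adjusted p = 0.037, edgeR). Fa2h, which makes the hydroxylated lipids of myelin, was at 837 to 1227 in PF and 1092 to 1508 in AD (log2 fold change -0.41, SE 0.11, adjusted p = 0.043, edgeR). Mbp, an abundant myelin gene chosen after its values were seen, did not pass, at a log2 difference of -0.36 (SE 0.11, adjusted p = 0.087, edgeR). In the left-out AD sample, Mag (5297) and Fa2h (1099) stood within the PF range. Of the 21 myelin list genes, 18 had a fold change below 0. With PF replicate 1, PF replicate 2, PF replicate 3, PF animal 11f5, AD replicate 2 or AD replicate 6 left out, no myelin list gene passed, and with PF replicate 6 left out 7 did. For the precursor list 4 passed without PF replicate 6, and 1 passed without any 1 of PF replicates 1, 2 and 3, PF animal 11f5 and AD replicates 2 and 6. With the sex-contradicted AD libraries left out it was also 1, since Olig1 (adjusted p = 0.14) and Olig2 (0.23) lost their call, as did Mag (0.13) (edgeR). With sex as a covariate, in a fit that also left out the sex-contradicted AD libraries, none of the 21 and none of the 14 passed. No myelin list gene passed in left hippocampi alone, and the fit of numbered samples is the one without PF animal 11f5. With DESeq2 5 myelin list genes passed, and with the replicate block 7. In 1 fit of the 3 diet groups Mag (adjusted p = 0.092), Olig1 (0.095) and Olig2 (0.074) lost their call (edgeR).

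Adamts4, a matrix protease also made by oligodendrocytes, was lower as well (576 to 715 in PF, 718 to 919 in AD; log2 fold change -0.34, SE 0.08), but its left-out AD sample (664) stood within the PF range and its call was lost without both sex-contradicted AD libraries (adjusted p = 0.092, edgeR). It was lost too without any 1 of PF replicates 1, 2 and 3, PF animal 11f5 and AD replicates 2 and 3 (adjusted p = 0.053 to 0.083, edgeR).

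Haemoglobin genes were lower in PF among the 10 samples, but not in the left-out pair. Hbb, the beta chain, was at 2177, 2628, 1799, 3767 and 3040 in PF and 4787, 4795, 4325, 5472 and 3685 in AD, where 1 PF library exceeded the lowest AD library. Its log2 fold change was -0.78 (SE 0.18, adjusted p = 0.022, edgeR). Hbb-b1, Hba-a1 and Hba-a2 passed too, with log2 fold changes of -0.75 for Hbb-b1, -0.82 for Hba-a1 and -0.88 for Hba-a2, so that 4 of 8 blood genes were lower, against 0.846% of all genes, and all 8 had a fold change below 0. In the left-out samples Hbb was higher in PF (4859) than in AD (2727), and with these samples in the fit no blood gene passed. No blood gene passed either without PF replicate 1, without PF replicate 2, without AD replicate 2, or without both sex-contradicted AD libraries, and 1 passed without AD replicate 1 or AD replicate 5. The brains were not perfused, and blood content was not tested as a part of the other results.

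Of 22 genes of the unfolded protein response, 3 were lower and none higher, where 0.846% of all genes were lower. Hspa5, the main chaperone of the endoplasmic reticulum, was at 4714, 4474, 4480, 4514 and 4698 in PF and 5717, 5248, 4927, 5384 and 5066 in AD. The groups of Hspa5 did not overlap, and the log2 fold change was -0.20 (SE 0.05, adjusted p = 0.032, edgeR), but the left-out PF sample stood at 5478, within the AD range. Pdia4, a disulfide isomerase, had a log2 fold change of -0.25 (SE 0.06) and Creld2, a secreted stress protein, one of -0.35 (SE 0.08). The left-out PF sample of Creld2, at 115, stood within the AD range, and the list median was -0.08. Without PF replicate 2, without AD replicate 1, or without both sex-contradicted AD libraries, none of the 22 passed, and 1 passed without PF replicate 1, PF replicate 3, PF animal 11f5 or AD replicate 2.

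**Figure D3:**
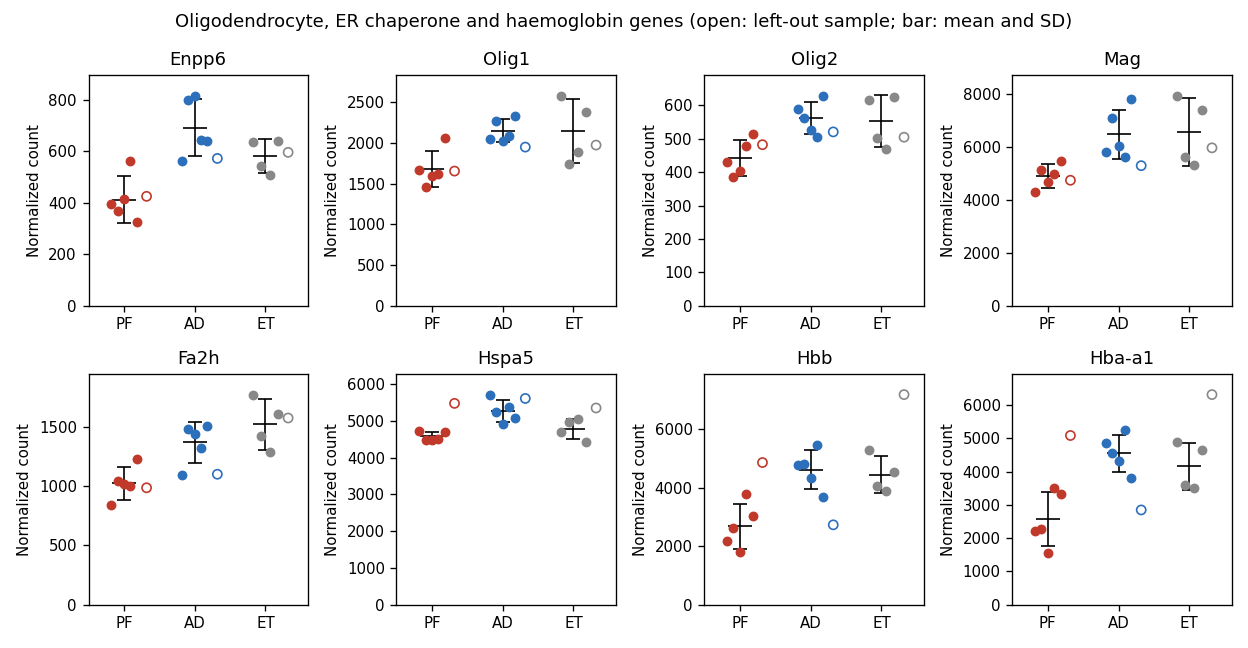
Normalized counts of 5 oligodendrocyte genes, the chaperone Hspa5 and 2 haemoglobin genes, with 1 point per library for PF, AD and ET (bars, mean and SD of the samples used; open circles, the left-out sample). Mag shows no overlap between PF (4310 to 5459) and AD (5641 to 7809), and for Hbb the left-out PF sample (4859) stands above the left-out AD sample (2727).

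Of 19 hypoxia and vascular growth genes, 2 were lower and 1 higher. Egln3 and Ndrg1, known targets of hypoxia-inducible factors, were lower (log2 fold change -0.27, SE 0.06 for Egln3 and -0.28, SE 0.07 for Ndrg1), and Hif3a, a related factor, was higher (14.3 to 32.4 in PF, 10.9 to 15.01 in AD). Over all genes, 0.846% were lower and 4.32% higher. No gene of the list passed without PF animal 11f5, which is the fit of numbered samples alone. None passed with the replicate block or in left hippocampi alone either. Hif3a lost its call without both sex-contradicted AD libraries (adjusted p = 0.16, edgeR). The left-out AD sample of Ndrg1, at 1496, stood within the PF range. Pdk1, which restrains pyruvate entry into the citric acid cycle, was higher (log2 fold change 0.24, SE 0.06), the only 1 of 27 glycolysis and glucose transport genes to pass, and its call was lost without both sex-contradicted AD libraries (adjusted p = 0.066, edgeR). The call of Pdk1 held without PF replicate 6, AD replicate 1 or AD replicate 6 but in none of the other 7 fits that left out 1 library (adjusted p = 0.058 to 0.084, edgeR). Hif3a and Ndrg1 each lost their call in 7 of these 10 fits, with adjusted p-values of 0.055 to 0.088 for Hif3a and 0.052 to 0.073 for Ndrg1.

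In the remaining lists, single genes passed. Fkbp4, a co-chaperone of the glucocorticoid receptor, was lower (2090 to 2228 in PF, 2443 to 2824 in AD; log2 fold change -0.24, SE 0.05), 1 of 22 stress axis genes, where 0.846% of all genes were lower. Syt5, a synaptotagmin of secretory vesicles, was lower (1431 to 1671 in PF, 1987 to 2318 in AD; log2 fold change -0.45, SE 0.06), and Unc13c, a vesicle priming factor, was higher (log2 fold change 0.51, SE 0.09). These were 1 lower and 1 higher of 43 release genes, against 0.846% lower and 4.32% higher of all genes. Grin2c, an NMDA receptor subunit, was lower by a log2 fold change of -0.18 (SE 0.05), and Tap2, an antigen peptide transporter, by -0.39 (SE 0.08). The left-out PF sample of Tap2 stood at 174, above every AD library used, and that of Unc13c at 313, within the AD range. Tap2 lost its call with all 12 samples (adjusted p = 0.21), with the replicate block (0.062) and with sex as a covariate (0.077) (edgeR). In the left-out pair Grin2c was slightly higher in PF (1006) than in AD (1000). Without both sex-contradicted AD libraries, Fkbp4 (adjusted p = 0.069) and Grin2c (0.15) lost their call (edgeR). The call of Grin2c was also lost in 8 of the 10 fits that left out 1 library, all but those without PF replicate 6 or AD replicate 2 (adjusted p = 0.057 to 0.12), with the scaling set on genes with no overlap (0.055) and with no filter on low counts (0.059). Unc13c lost its call in 1 fit of the 3 diet groups (adjusted p = 0.075) and with sex as a covariate (adjusted p = 0.070) (edgeR). Fkbp4, Syt5 and Unc13c overlap another gene, as does Nqo2.

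Nqo2, a quinone reductase, was at 18.4 to 29.6 in PF and 42.7 to 56.5 in AD (log2 fold change -1.02, SE 0.14), but at 72.5 in the left-out PF sample. Cd163, a scavenger receptor of border macrophages, was higher (28.0 to 50.5 in PF, 21.7 to 27.8 in AD), but its left-out PF sample stood at 26.3 and its call was lost without both sex-contradicted AD libraries (adjusted p = 0.16, edgeR) and without AD replicate 2 alone (adjusted p = 0.052, edgeR).

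In 25 of the 47 lists with a gene tested, no gene passed in either direction. Among them, oxidative phosphorylation had 0 of 76 genes with a median log2 fold change of -0.04, cholesterol synthesis and uptake 0 of 24 with a median of -0.05, and immediate early genes 0 of 30 with a median of -0.06. The circadian clock had 0 of 19 and GABA transmission 0 of 25. Over all genes tested, 4.32% were higher and 0.846% lower, so for lists of 19 to 30 genes a count of 0 is near these shares. At this number of animals, a p-value above the threshold does not show that these genes were equal.

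The gain of counts in PF was a different pattern. The 323 genes higher in PF at the study threshold made up 3.10% of the 6967 genes that overlap another gene (216 genes), 0.392% of the 8421 that overlap none (33 genes) and 12.9% of the 572 that could not be matched to the gene list (74 genes). Summed over the 323 genes, the normalized count was 47396, 43849, 46191, 45797 and 50046 in the 5 PF libraries, and 4337, 4212, 4367, 4220 and 4378 in the 5 AD libraries. Every PF library held about the same large sum, and every AD library about the same small one.

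The left-out samples, which the test did not use, stood on the same sides. The sum was 45733 in PF animal 11f6 and 4359 in AD replicate 4. All 323 genes were higher in PF animal 11f6 than in any AD library used, and the median log2 fold change of the left-out pair was 3.33. The 5 ET libraries summed to between 3785 and 4979, and for 320 of the 323 genes the 4 ET libraries used all lay below every PF library. The 323 genes were chosen as high in the PF and low in the AD libraries used, which favours such counts. The share over all genes tested was not counted for these comparisons.

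**Figure D4:**
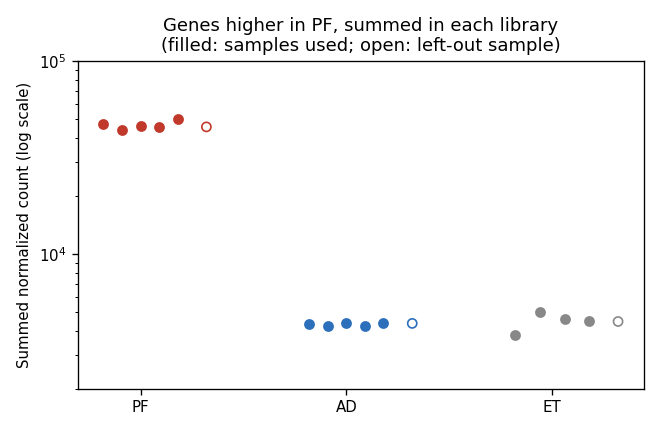
Summed normalized count (log axis) of the 323 genes higher in PF, with 1 point per library (filled, samples used; open, the left-out sample of each group). All 6 PF libraries lie between 43849 and 50046, and AD and ET libraries between 3785 and 4979.

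The gamma-protocadherins form a gene cluster in which many variable first exons are spliced to shared last exons, and they give neurons cell surface identity. Of 15 tested, 14 were higher in PF at an adjusted p-value below 0.05 (4.32% of all genes), and 12 passed the study threshold (2.02% of all genes). Pcdhga1 was at 1369, 1187, 1330, 1269 and 1489 in PF and 10.2, 8.33, 13.1, 5.56 and 13.9 in AD (log2 fold change 7.01, SE 0.13). The gain, the PF mean minus the AD mean, was 1319 for Pcdhga1, 1320 for Pcdhga5, 1327 for Pcdhga9 and 1284 for Pcdhga2, although the AD means of these genes ranged from 10.2 for Pcdhga1 to 289 for Pcdhga2. Their fold changes were therefore as unequal as their AD levels, while their gains were close to equal. Pcdhgc3, a C-type member and the most abundant of the 15 in AD, gained 1196 (log2 fold change 0.85, SE 0.07).

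Other members gained less. Pcdhgc5 gained 459 (log2 fold change 0.41, SE 0.09) and lost its call without both sex-contradicted AD libraries (adjusted p = 0.063, edgeR) and in 1 fit of the 3 diet groups (adjusted p = 0.068, edgeR). Pcdhga4 had 285 ± 28.2 in PF and 284 ± 44.3 in AD (SD, n = 5 each). None of 2 alpha-protocadherins and none of 16 beta-protocadherins tested passed. This is near the share over all genes, where 4.32% were higher and 0.846% lower.

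**Figure D5:**
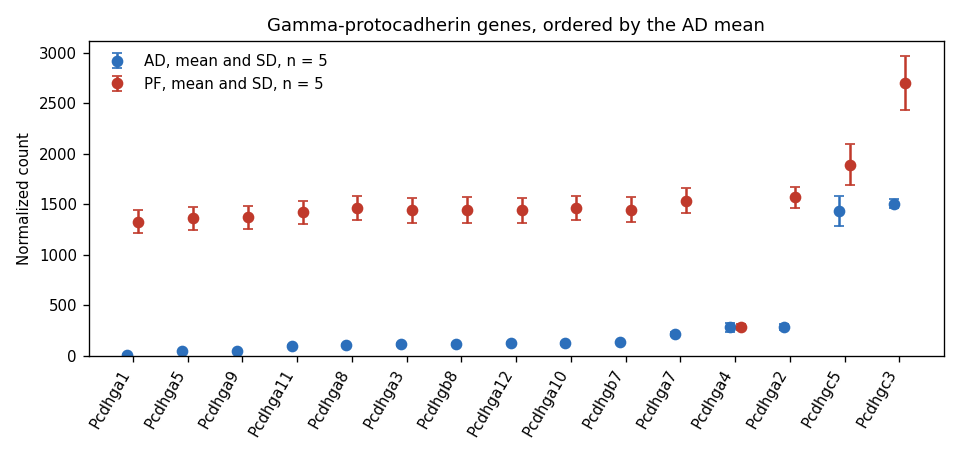
Mean normalized counts with SD of the 15 gamma-protocadherin genes tested in PF and AD, ordered by the AD mean. The 12 genes from Pcdhga1 to Pcdhga2 other than Pcdhga4 gained between 1284 and 1357, and Pcdhga4 stayed at 285 in PF against 284 in AD.

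The Ugt1a genes, which encode enzymes that attach glucuronic acid to bilirubin and drugs, have the same layout of separate first exons and shared later exons. Of 9 UDP-glucuronosyltransferases tested, 8 were higher (4.32% of all genes) and 7 passed the study threshold (2.02%). The list's summed level was 283 ± 35.4 CPM in PF and 340 ± 46.9 CPM in AD (SD, n = 5 each), and the groups overlapped. Its most abundant gene is Ugt8, which makes a lipid of myelin and had 3666 ± 467 in PF and 4534 ± 634 in AD (adjusted p = 0.16, edgeR). Ugt1a5 was at 12.8, 15.3, 12.1, 13.96 and 13.6 in PF and at 0 in every AD library. Ugt1a1 was at 13.1, 15.9, 13.5, 14.9 and 13.9 in PF and at most 1.48 in AD. These counts were close to each other in each PF library. Ugt1a6 was not as close, at 13.9 to 18.5 in PF and 0.386 to 2.01 in AD.

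In some pairs the counts of both genes were equal. Gdf1 and Cers1, a growth factor and a ceramide synthase made from a shared transcript, had the same count in each of the 5 PF libraries (mean 179 ± 27.8, SD) and 0 in each AD library. Asnsd1 and Asdurf were likewise equal in all 5 (mean 104 ± 7.96), and 0 in AD. Chtf8 and Derpc differed by at most 2.33 counts. These pairs were picked after their values were seen.

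The imprinted gene list had 3 of 25 genes higher, against 4.32% of all genes, and each overlaps another gene. Snrpn and Snurf, made from 1 bicistronic transcript, rose from 26.4 to 213 and from 97.6 to 259.5 (means of AD and PF). Apeg3, an antisense transcript of Peg3, was at 145 to 217 in PF and 0 in AD, while Peg3 itself had 6127 ± 614 in PF and 5838 ± 601 in AD (SD, n = 5 each; log2 fold change 0.07, SE 0.08).

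The same held for other genes lying on an abundant partner. Slc3a1, a kidney amino acid transporter subunit, was at 241 to 301 in PF and 0.771 to 2.22 in AD, and its overlapping neighbour Prepl was at 6557 ± 412 and 6266 ± 361. Fam166a was at 410 to 478 in PF and 1.04 to 4.35 in AD, beside Tubb4b at 2826 ± 266 and 2700 ± 122. Map3k15 was at 179 to 192 in PF and 16.2 to 22.0 in AD, beside Pdha1 at 915 ± 93.8 and 800 ± 39.5. The gains of these genes were 267 for Slc3a1, 458 for Fam166a and 166 for Map3k15, and those of the partners, none of which passed the test, were 290.2 for Prepl, 126 for Tubb4b and 115 for Pdha1.

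Of the genes higher in PF, 134 had at most 3 counts in every AD library and 38 were at 0 in all 5. In 28 genes at 0 in AD the PF mean was at least 20, and 24 of the 28 were also at 0 in every ET library used. Rybp, a Polycomb-associated factor, was at 216 to 263 in PF and 0 in AD, and its PF mean of 236 was at least 68.0-fold higher than the floor of 3 counts in an AD library. Tomm6, a subunit of the mitochondrial import pore, was at 134 to 177 in PF, and the ribosomal proteins Mrpl28 (70.0 to 98.3) and Mrpl53 (52.5 to 66.9) were also at 0 in AD. Rn18s, the 18S ribosomal RNA, was at 290 to 632 in PF and 0 in AD, and Rn45s, its precursor, at 301 to 680 in PF and 28.9 to 118 in AD.

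Genes with no overlap in the gene list had gains too. Ergic2, which cycles between the endoplasmic reticulum and Golgi, was at 60.8 to 72.5 in PF and 0.639 to 2.31 in AD (log2 fold change 5.49, SE 0.17). Smim22, Morn5, Spata21, Scd4, Zfp397 and Lrrn4 had log2 fold changes from 1.78 for Zfp397 to 4.49 for Smim22.

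Of the 248 genes higher in PF with a gain of at least 20 normalized counts, 66 (26.6%) had an overlapping or next-row gene whose gain was like their own within the same limits. Among 2831 genes with such a gain that were not called, the share was 7.63%. By the study's methods, reads were counted with assignment to multiple features allowed; how fragments lying on 2 genes were assigned in each library was not tested.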

How the data were processed

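RNA-seq counts of the hippocampus were compared between 5 PF and 5 AD samples. The values the authors deposited were expected counts in form: fragments were mapped with Bowtie2 2.4.2 and assigned to the exons of 34322 genes with featureCounts 2.0.1, and averaged over 3 technical replicates (53.3% whole numbers, not normalized). The strand setting is not given in the sources used here. Members and lists were chosen with earlier results of these data known.

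Averages were rounded, filtered with filterByExpr, scaled by TMM and tested in R 4.3.3 by edgeR 4.0.16 (quasi-likelihood test, Benjamini-Hochberg adjustment). DESeq2 1.42.0 was an alternative. All adjusted p-values in the text are from edgeR. Normalized counts are TMM-scaled over 17 samples to the mean library size. Overlap means sharing at least 1 base of the gene span, on either strand, with another gene of the RefSeq list for GRCr8, a later assembly than the authors' mRatBN7.2; 89.5% of symbols matched. Named genes were all lower genes at the study threshold, the 10 smallest p-values among higher genes with and without overlap, the 15 smallest in each direction among well expressed genes, up to 4 called genes of each list, their overlapping genes, and others marked as chosen after their values were seen. These last also include Srsf2, Peg3, Prepl, Tubb4b, Pdha1, Ugt8 and the Ugt1a genes. PF animals 11f5 and 11f6 are named by animal, because their replicate numbers could not be told from the labels. In simulated data of the same size, 178 of 200 genes with a mean of at least 10 CPM, changed by 0.5 on the log2 scale, were recovered at an adjusted p-value below 0.05, with 10 false calls among 15817 genes. The simulation gave genes of like abundance the same spread. Its change was larger than the median called shifts of well expressed genes, 0.34 and -0.28, so recovery of such shifts was not measured. Counting error and littermate spread set the precision. Some genes are not reported here.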

Additional observations from a re-analysis of the deposited data

Results flagged for a closer look

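In 220 groups of 5 libraries, 11 held a library far from the other 4, where chance flags about 1 in 20. LOC100912642 was at 42.8 in AD replicate 3, with the others at 17.9 to 21.1. In PF replicate 6, Ube2s was at 291 and Mknk2 at 817, both nearer to AD than the other PF libraries were. Cyp26b1 was at 454 in PF replicate 2, within the AD range. Smim22 was at 8.87 in AD replicate 6, Zfp397 at 24.8 in AD replicate 3, Fam166a at 410 in PF replicate 3 and Rn45s at 118 in AD replicate 1. Ttr, a choroid plexus gene, was at 14552 in PF replicate 2, where the choroid plexus list summed to 1838 CPM. The pineal list summed to 1108 CPM in AD replicate 6.

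Outside the samples tested, 323 of the 323 genes higher in PF stood above every AD library in PF animal 11f6.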

How the results depend on the processing

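Without the low-count filter, 485 genes were higher and 8 lower in PF at the study threshold, with sums of the technical replicates 8 were lower, with sex as a covariate 9, and with an absolute fold change above 1.5 in place of the log2 value 18. With overlapping genes left out 107 were higher. The 4 lower genes were among those lower in every alternative run. Among well expressed genes, 18 were higher and 14 lower in samples with a matching sex label, which leave out AD replicates 1 and 2. Every fit with sex as a covariate used these same samples, and there 15 were higher and 13 lower. With DESeq2 112 were lower, in left hippocampi 104, and in numbered samples alone, the fit without PF animal 11f5, 35. A mean of at least 30 CPM left 26 higher, and with overlapping genes kept in there were 209 higher and 100 lower. A block on the replicate number gave 33 well expressed genes higher and 75 lower, and 290 and 5 at the study threshold. Same-numbered samples are different animals, and their deviations correlated by -0.03 to 0.08, so the numbers do not pair them. Leaving out 1 library gave 32 to 100 well expressed genes higher and 21 to 157 lower, 320 to 353 higher and 4 to 6 lower at the study threshold. Pcdhga4, which was not called, turned to -0.057 with all 12 samples, and lay between -0.074 and 0.065 with 1 library left out. The causes of these changes were not tested.

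Of 96 called genes named, which include the large gains in PF, 76 stayed past their threshold whichever library was left out, and none changed direction. The 20 that lost their call were all shifts below the study threshold. Olig2, Fa2h and Grin2c each lost theirs in 8 of the 10 fits. DESeq2 and the median-of-ratios scaling changed no call among the 96. In samples with a matching sex label 28 lost theirs, and 35 did with sex as a covariate on those samples. In 1 fit of the 3 diet groups 9 lost theirs, and with the replicate block 24 did. Limits are the single litter per diet, the sex labels of 2 AD samples, and low counts of the 4 lower genes.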
